A study of Mus musculus with 16 samples.

Results

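The IL-12 family of cytokines was followed here through the genes of its 5 subunits in mouse macrophages, namely Il12a (p35), Il12b (p40), Il23a (p19), Il27 (p28) and Ebi3. A gene was taken as a member when its symbol in the gene table was one of these names, which gave 5 of the 22287 genes. All 5 were among the 12514 genes that passed the filter on low counts. RNA-seq was done on bone marrow derived macrophages (BMDMs) of 8-week-old C57BL/6J mice, grown for 7 days with GM-CSF at 20 ng/ml (GM) or with M-CSF at 50 ng/ml (M). The cells grew on dishes with a tissue culture treated surface (TC) or on untreated dishes (noTC), and received vehicle (steady state) or LPS, a bacterial cell wall lipid, at 100 ng/ml for 3 h. The 8 combinations each had 2 libraries, and a name such as M-noTC-LPS gives the growth factor, the dish and, where LPS was given, LPS. The labels do not tie the libraries to single mice, so a p-value here measures the spread between these libraries.

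The members of the IL-12 family are heterodimers that share chains. IL-12 is p35 with p40, IL-23 is p19 with p40, IL-27 is p28 with EBI3, and IL-35 is p35 with EBI3. Macrophages and dendritic cells make them after Toll-like receptor signals, and they steer T and NK cells, IL-12 towards interferon gamma, IL-23 towards IL-17 and IL-27 towards IL-10 and restraint. mRNA of a single chain does not show that a dimer was made or secreted.

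The genes lie apart in the genome (GRCm38, GENCODE M21). Il12b is on chromosome 11 (44400063 to 44414033, plus strand), Il12a on chromosome 3 (68690644 to 68698547, plus strand) and Il23a on chromosome 10 (128296139 to 128298752, minus strand). Il27 is on chromosome 7 (126589010 to 126594941, minus strand) and Ebi3 on chromosome 17 (55952640 to 55957022, plus strand). RefSeq (GRCm38.p6) start sites were found for 3 of the 5 members. The 250 bases before the start are shown for Il12b, the member with the highest level upon LPS in GM cells, and for Ebi3, the member with the highest level at steady state. Capitals mark matches to the searched motifs. In the Il12b window (chr11:44399813-44400062, plus strand) they are the PU box GAGGAA at -143 to -138, its reverse complement at -219 to -214, and TATAA at -28 to -24. In the Ebi3 window (chr17:55952373-55952622, plus strand) they are the PU box at -176 to -171 and the NF-kappaB consensus at -44 to -35.
Il12b: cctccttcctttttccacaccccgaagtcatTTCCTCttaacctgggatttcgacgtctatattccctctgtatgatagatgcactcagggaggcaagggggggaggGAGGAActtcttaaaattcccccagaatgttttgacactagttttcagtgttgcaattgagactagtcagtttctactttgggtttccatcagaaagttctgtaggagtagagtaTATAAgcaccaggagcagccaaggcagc
Ebi3: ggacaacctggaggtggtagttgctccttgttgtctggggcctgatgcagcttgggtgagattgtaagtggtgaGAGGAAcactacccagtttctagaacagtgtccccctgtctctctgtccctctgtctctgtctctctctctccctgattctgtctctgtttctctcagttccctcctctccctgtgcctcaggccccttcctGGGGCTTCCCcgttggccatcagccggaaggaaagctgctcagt
Both strands were searched for 6 motifs, and none overlapped another in these windows. Among 32851 windows of the same length over all genes, 23.3% held the PU box, 22.8% TATAA and 7.25% the NF-kappaB consensus. The AP-1 letters TGANTCA were in 6.75% of all windows, the C/EBP letters TTNCNNAA in 36.8% and the interferon-stimulated response element in 2.98%, and none of these was in the windows of Il12b, Ebi3 or the 2 start sites of Il12a. The Il12a windows held none of the 6 motifs. A match is only a run of letters, and binding was not measured.

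Library totals lay between 17527802 and 31458363 counts, so that 3 counts, the floor used here, correspond to 0.0954 to 0.171 CPM, which are counts scaled to a common library total. The 6 macrophage markers Adgre1, Csf1r, Cd68, Mertk, Fcgr1 and Lyz2 were above that floor in all 16 libraries and summed to between 17080 and 43425 CPM (scaled by library size, as for all marker lists). Of the 7 T, NK and B cell markers, Cd3e and Ncr1 had 0 counts in every library and Cd247, the only one tested, had at most 4.03 CPM. Of the cytokines that IL-12 and IL-23 are known to raise in lymphocytes, Ifng had 3 counts over all 16 libraries, Il17a 3, Il17f 4 and Il22 32. A list of 9 cardiac muscle genes summed to 25.2 to 88.0 CPM in the 4 vehicle-treated libraries from TC dishes and to at most 1.32 CPM in the other 12. Of these genes, Mybpc3 was above the floor in all 16 libraries and Tnni3 in 10. The 4 noTC libraries at steady state carried low counts of many genes that were abundant elsewhere, and this is set out beside the dish comparisons. In bulk RNA, fewer cells of a type and less RNA per cell cannot be told apart.

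Upon LPS challenge all 5 subunits rose in each of the 4 cultures, from at most 7.36 CPM (group means) for Il12b, Il12a, Il23a and Il27 and from a standing level for Ebi3. Per exon length, p40 transcripts reached the highest level of the family in GM cells and p28 transcripts in M cells. In comparison, a called rise was seen in 36.4% of all tested genes in M-noTC, 37.6% in M-TC, 33.6% in GM-noTC and 32.8% in GM-TC. Here a gene is called when its Benjamini-Hochberg adjusted p in edgeR's quasi-likelihood test is under 0.05. Levels below are CPM scaled with TMM factors, and log2 fold changes come from the fit. Overlap between libraries is given as description only, since an exact two-sided test of 2 against 2 libraries cannot give a p under 0.333.

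Il12b encodes p40, the chain of both IL-12 and IL-23. In GM-TC it had 3 and 4 counts at steady state and 61427 and 76144 counts upon LPS. Upon LPS the levels on TC dishes were 3176 and 3536 CPM with GM-CSF, and those on noTC dishes 3422 and 3245 CPM. M-TC-LPS had 474 and 565 CPM, and M-noTC-LPS 297 and 340 CPM. The LPS libraries of GM and M did not overlap, and those of both GM dishes lay in one range. By CPM, Il12b had rank 38 in GM-TC-LPS and rank 39 in GM-noTC-LPS among all genes, against 417 in M-TC-LPS and 698 in M-noTC-LPS. The LPS to steady state ratio in GM-TC was 21461, with an exact 95% interval for counting error of 10416 to 53379. In M-TC both steady state libraries had 0 counts, so the level upon LPS was at least 4481-fold higher. On noTC dishes the steady state libraries had 166 and 215 counts (GM) and 166 and 189 counts (M), and the log2 fold change was 8.82 ± 0.12 (SE) in GM-noTC and 6.02 ± 0.11 in M-noTC (adjusted p = 2.5e-23 and 4.8e-21). Both rest on steady state counts that are described with the dish comparisons below, and with a share of other libraries subtracted (the share set by genes other than the members) the fitted log2 fold changes were 13.28 and 11.43, from 17 and 8 counts left at steady state. That share is above the steady state excess of Il12b, so these larger values follow by construction.

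Il12a encodes p35, the chain that makes p40 into IL-12. At steady state the 8 libraries had between 0 and 5 counts. GM-TC-LPS had 310 and 350 counts, a mean of 16.1 ± 0.158 CPM (SD, n = 2), and GM-noTC-LPS had 294 and 303 counts, a mean of 13.9 ± 0.0745 CPM. M-TC-LPS had 140 and 135 counts, or 6.89 and 7.85 CPM, and M-noTC-LPS had 142 and 118 counts, or 7.29 and 5.89 CPM. Every GM library was above every M library, and the dishes overlapped within M. In M-TC, with 0 counts at steady state, the rise was at least 63.5-fold. The ratios in the other cultures rest on 1 to 8 counts, and were 721 in GM-TC (interval 129 to 28509), 89.5 in GM-noTC (45.1 to 208) and 478 in M-noTC (85.1 to 18970).

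Il23a encodes p19, the chain that makes p40 into IL-23. At steady state the 4 libraries from TC dishes had 0 counts, and there were 3 and 2 counts in GM-noTC and 2 and 3 in M-noTC. Upon LPS, GM-TC-LPS had 37.7 and 44.2 CPM and GM-noTC-LPS 65.5 and 59.4 CPM. M-TC-LPS had 1.23 and 1.16 CPM, from 25 and 20 counts, and M-noTC-LPS 2.57 and 1.95 CPM, from 50 and 39 counts. The 4 groups did not overlap, and the order was GM-noTC-LPS, GM-TC-LPS, M-noTC-LPS and M-TC-LPS. The rise was at least 301-fold in GM-TC and at least 10.3-fold in M-TC. The ratio was 644 in GM-noTC (interval 276 to 1985) and 32.8 in M-noTC (13.5 to 103).

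Il27 encodes p28, the chain that pairs with EBI3. At steady state it had 8 to 32 counts in the 4 GM libraries and 4 to 51 counts in the 4 M libraries. GM-TC-LPS had 246 and 241 CPM and GM-noTC-LPS 224 and 230 CPM, while M-TC-LPS had 442 and 466 CPM and M-noTC-LPS 440 and 491 CPM. The M libraries were above the GM libraries, and within M both dishes lay in one range. Upon LPS, Il27 rose on the log2 scale by 10.05 ± 0.14 in M-TC, 9.30 ± 0.15 in GM-TC, 8.70 ± 0.12 in M-noTC and 7.60 ± 0.13 in GM-noTC. The adjusted p-values of edgeR lay between 4e-24 and 1.1e-22. Both noTC values rest on steady state counts that are described with the dish comparisons below. With a share of other libraries subtracted (set by genes other than the members), the fitted values were 15.40 in GM-noTC and 11.82 in M-noTC. They rest on 0 counts left in GM-noTC and on 1 and 8 in M-noTC, so the order of the dishes is not settled. Il27 shares 103 exon bases with Apobr, a gene on the opposite strand, and whether the counting used strand is not given in the sources used here. Apobr itself had 60.1 to 96.8 CPM (means of the steady state groups) and 104 to 167 CPM upon LPS, so part of the counts of either gene is uncertain.

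Ebi3, the partner of p28 in IL-27, differed from the rest in its standing level. The steady state means were 36.1 ± 2.90 CPM (SD, n = 2) in M-TC and 31.0 ± 1.07 in M-noTC, against 17.5 ± 1.36 in GM-TC and 16.5 ± 1.39 in GM-noTC. M-TC-LPS had 311 and 295 CPM and M-noTC-LPS 224 and 231 CPM, while GM-noTC-LPS had 66.1 and 69.4 CPM and GM-TC-LPS 57.2 and 62.5 CPM. None of the LPS groups overlapped another. Upon LPS, Ebi3 rose on the log2 scale by 3.07 ± 0.071 in M-TC, 2.87 ± 0.070 in M-noTC, 2.04 ± 0.079 in GM-noTC and 1.77 ± 0.081 in GM-TC (adjusted p between 2.7e-20 and 1.1e-14). An annotated antisense gene, Gm16712, shares 270 exon bases with Ebi3 and has no row in the table, so its reads may be in the Ebi3 counts.

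**Figure D1:**
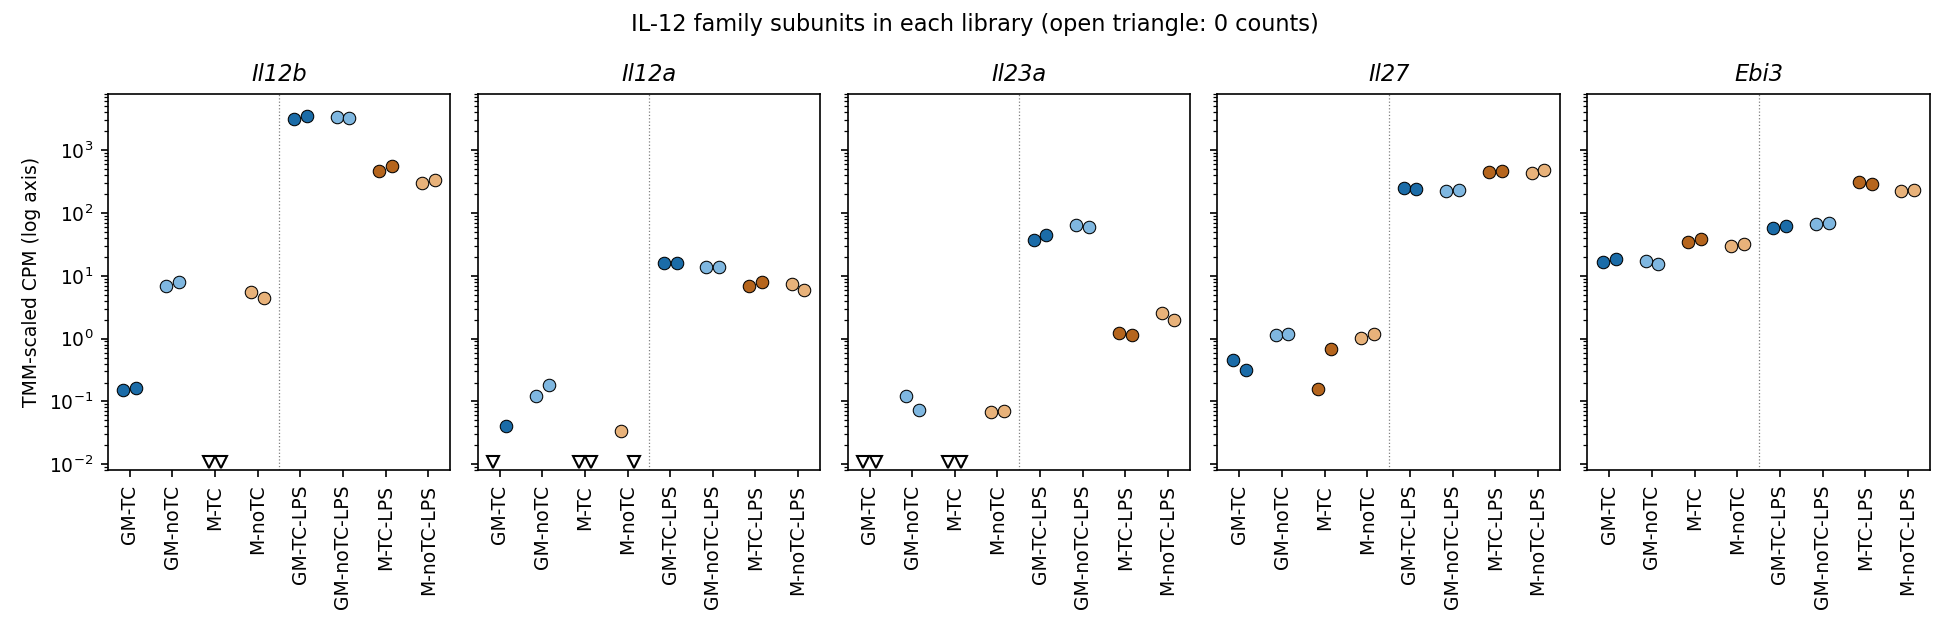
TMM-scaled CPM (log axis) of the 5 subunit genes in each of the 16 libraries, 1 point a library, by group, with steady state to the left and LPS to the right of the dotted line, and open triangles for libraries with 0 counts. Il12b, Il12a and Il23a are highest in the GM libraries upon LPS, Il27 and Ebi3 in the M libraries, and Ebi3 has 16.5 CPM or more as a group mean in every steady state group.

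To set the chains side by side, levels were divided by exon length. Upon LPS, Il12b had 1706 ± 129 CPM per kb (SD, n = 2) in GM-TC-LPS and 1695 ± 63.5 in GM-noTC-LPS, against 264 ± 32.6 in M-TC-LPS and 162 ± 15.6 in M-noTC-LPS. p40 transcripts were thus in excess of both partners in each culture. Per kb, Il12b was on average 180 times Il12a in GM-TC-LPS and 208 times in GM-noTC-LPS, but 60.9 times in M-TC-LPS and 42.6 times in M-noTC-LPS, and no GM library was below 171. Against Il23a the order was turned around, with 93.7 times in GM-TC-LPS and 61.0 in GM-noTC-LPS, and 498 times in M-TC-LPS and 166 in M-noTC-LPS. The partners themselves changed places. The ratio of Il12a to Il23a per kb was 0.523 in GM-TC-LPS and 0.294 in GM-noTC-LPS, where p19 was the more abundant, and 8.16 in M-TC-LPS and 3.87 in M-noTC-LPS, where p35 was. The ratio was under 1 in all 4 GM libraries and over 1 in all 4 M libraries. In M cells Il27 had the highest level of the family, 445 ± 16.8 CPM per kb in M-TC-LPS and 456 ± 34.9 in M-noTC-LPS. Its ratio to its partner Ebi3 was 1.70 in M-TC-LPS and 2.31 in M-noTC-LPS, below the 4.61 of GM-TC-LPS and the 3.79 of GM-noTC-LPS. These ratios are of transcripts per exon length in bulk RNA and have no test.

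**Figure D2:**
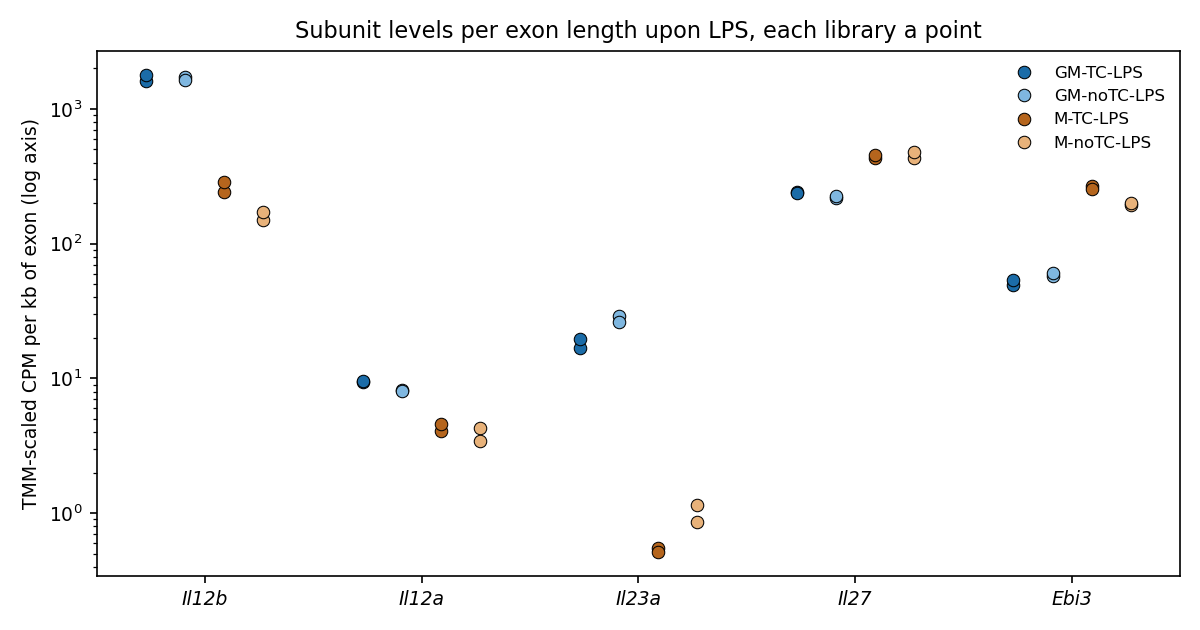
TMM-scaled CPM per kb of exon (log axis) of the 5 subunits upon LPS, 1 point a library, coloured by culture. Il12b lies above Il12a and Il23a in every culture, and Il23a is above Il12a in the GM libraries (18.2 and 27.8 CPM per kb against 9.49 and 8.16 as group means) and below it in the M libraries.

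The comparison of growth factors upon LPS split the family by chain. The 3 chains of IL-12 and IL-23 were higher in GM cells and both chains of IL-27 were higher in M cells, on TC and on noTC dishes alike. All 5 members were called, beside 66.8% of all tested genes on TC and 66.1% on noTC dishes, so that a call by itself says little here and the sizes carry the comparison. For Il23a the GM minus M log2 fold change was 5.09 ± 0.16 (SE) on TC and 4.79 ± 0.14 on noTC dishes (adjusted p = 2.6e-16 and 5.9e-17). For Il12b it was 2.69 ± 0.083 on TC and 3.39 ± 0.086 on noTC dishes (adjusted p = 6.1e-17 and 2.4e-18). For Il12a it was 1.14 ± 0.15 and 1.08 ± 0.15 (adjusted p = 8.5e-07 and 2.2e-06). The p19 gap was the widest of the 3, and the p35 gap the narrowest. In the other direction, Il27 was lower in GM cells, at -0.90 ± 0.069 on TC and -1.04 ± 0.070 on noTC dishes (adjusted p = 1.5e-10 and 1.4e-11). Ebi3 was lower at -2.34 ± 0.069 and -1.75 ± 0.067 (adjusted p = 6.4e-18 and 8.2e-16). Each of these 10 calls was kept under every alternative, including leaving out any of the libraries compared, except that Il27 on TC dishes was under a fold of 2, the study's threshold.

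Markers of other cells also moved with the growth factor. Of 7 dendritic cell markers, 6 were tested and 5 were higher in GM cells upon LPS on either dish. The list summed to 795 to 1120 CPM in the GM groups and to 19.7 to 66.7 CPM in the M groups. Most of that sum was Itgax, the integrin chain CD11c, with up to 1066 CPM in a GM library against 65.2 CPM in M. The highest library of GM and of M had 48.8 and 0.576 CPM of Ccr7, 35.9 and 0.607 CPM of Clec9a, 6.43 and 0.554 CPM of Zbtb46 and 6.24 and 0.445 CPM of Cd209a. For Xcr1 these were 2.48 and 2.38 CPM, and for Flt3 0.409 and 0.140 CPM. Of 6 neutrophil markers, 3 were tested and all 3 were higher in GM cells, with sums of 6.10 to 18.3 CPM in GM and 0.206 to 1.296 CPM in M, and Ly6g, Mpo and Elane had 0 counts in every M library. Of the 6 macrophage markers, 2 were higher and 4 lower in GM than in M cells. These counts stand beside 66.8% (TC) and 66.1% (noTC) of all tested genes called in either direction upon LPS. The part of these cell markers in the cytokine differences was not tested.

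At steady state the growth factors differed clearly in Ebi3 only, with GM minus M at -1.04 ± 0.083 on TC and -0.91 ± 0.081 on noTC dishes (log2, adjusted p = 2.9e-10 and 1.5e-09). On TC dishes 2 of the 5 members were called, beside 61.5% of all tested genes. The other one was Il12b, with 7 counts over both GM-TC libraries against 0 in M-TC, at least 1.35-fold (adjusted p = 0.027). That call was lost when any one of the 4 libraries was left out (adjusted p between 0.073 and 0.1, and between 0.0029 and 0.1 over all alternatives). On noTC dishes 3 members were called, beside 62.1%. Il12b was higher in GM by 0.59 ± 0.15 (adjusted p = 0.0022) and Il12a by a ratio of 11.3 (interval 1.51 to 500) that rests on 8 against 1 counts (adjusted p = 0.011). Scaled by library size alone, the Il12b difference was 0.30 and not called. With a share of other libraries subtracted it was 1.54 and not called, from 17 and 8 counts left. Neither Il12b nor Il12a was called without GM-noTC replicate 2 or without M-noTC replicate 2.

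Comparing noTC with TC dishes upon LPS, p19 was the chain that rose in both kinds of macrophages. In GM cells Il23a was the only member called, beside 2.8% of all tested genes. The libraries had 37.7 and 44.2 CPM on TC against 65.5 and 59.4 CPM on noTC dishes, a log2 fold change of 0.61 ± 0.091 (adjusted p = 0.00044), called in all 11 alternatives that use an adjusted p (0.03 at most). Il12b differed by -0.01 ± 0.078 (adjusted p = 0.98), Il12a by -0.22 ± 0.14 (0.53), Il27 by -0.10 ± 0.070 (0.59) and Ebi3 by 0.18 ± 0.071 (0.23). In M cells 3 members were called, beside 23.3%. Il23a was higher on noTC dishes by 0.91 ± 0.26 (adjusted p = 0.015), from 25 and 20 counts to 50 and 39. Without M-TC-LPS replicate 1, M-TC-LPS replicate 2 or M-noTC-LPS replicate 1 it was not called (adjusted p = 0.075, 0.075 and 0.17), and over all alternatives the adjusted p lay between 0.0054 and 0.17. The log2 change in these was 0.95, 0.87 and 0.70. Il12b fell by 0.70 on the log2 scale (SE 0.080, adjusted p = 1.8e-06), from 474 and 565 CPM to 297 and 340 CPM. Ebi3 fell by 0.41 (SE 0.063, adjusted p = 4.7e-05), from 311 and 295 CPM to 224 and 231 CPM. The calls of Il12b and Ebi3 were kept in all 11 alternatives that use an adjusted p. Neither Il23a, Il12b nor Ebi3 reached a fold of 2 here. In the same comparison 5 of the 6 macrophage markers were called lower on noTC dishes and 1 of the 6 tested dendritic markers higher, Itgax, with 22.9 ± 2.196 CPM in M-TC-LPS and 56.5 ± 3.36 CPM in M-noTC-LPS (SD, n = 2). In GM upon LPS, 1 macrophage marker and 1 neutrophil marker were called higher. The part of these markers in the dish differences was not tested. Il12a differed by -0.16 ± 0.16 (0.54) and Il27 by 0.04 ± 0.068 (0.77).

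The dish difference depended on the growth factor for p40 and EBI3. Upon LPS, the noTC minus TC log2 difference of Il12b was -0.01 in GM and -0.70 in M, and their difference, the interaction, was 0.69 ± 0.11 (adjusted p = 0.00026). For Ebi3 it was 0.18 in GM and -0.41 in M, with an interaction of 0.59 ± 0.095 (adjusted p = 2e-04). Both chains were thus called lower on noTC dishes in M alone of the 2 cells, and 10.6% of tested genes were called in this interaction. For Il23a this interaction was -0.30 ± 0.28 (adjusted p = 0.56), so the rise of p19 on noTC dishes was not shown to differ between the cells. At steady state Il12a, Il12b and Il23a have no value in the same interaction, since M-TC had 0 counts of each. Il27 (0.22 ± 0.56, adjusted p = 0.88) and Ebi3 (0.12 ± 0.12, adjusted p = 0.59) did not pass it in edgeR, nor in DESeq2. Of all tested genes, 11.2% were called in edgeR.

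**Figure D3:**
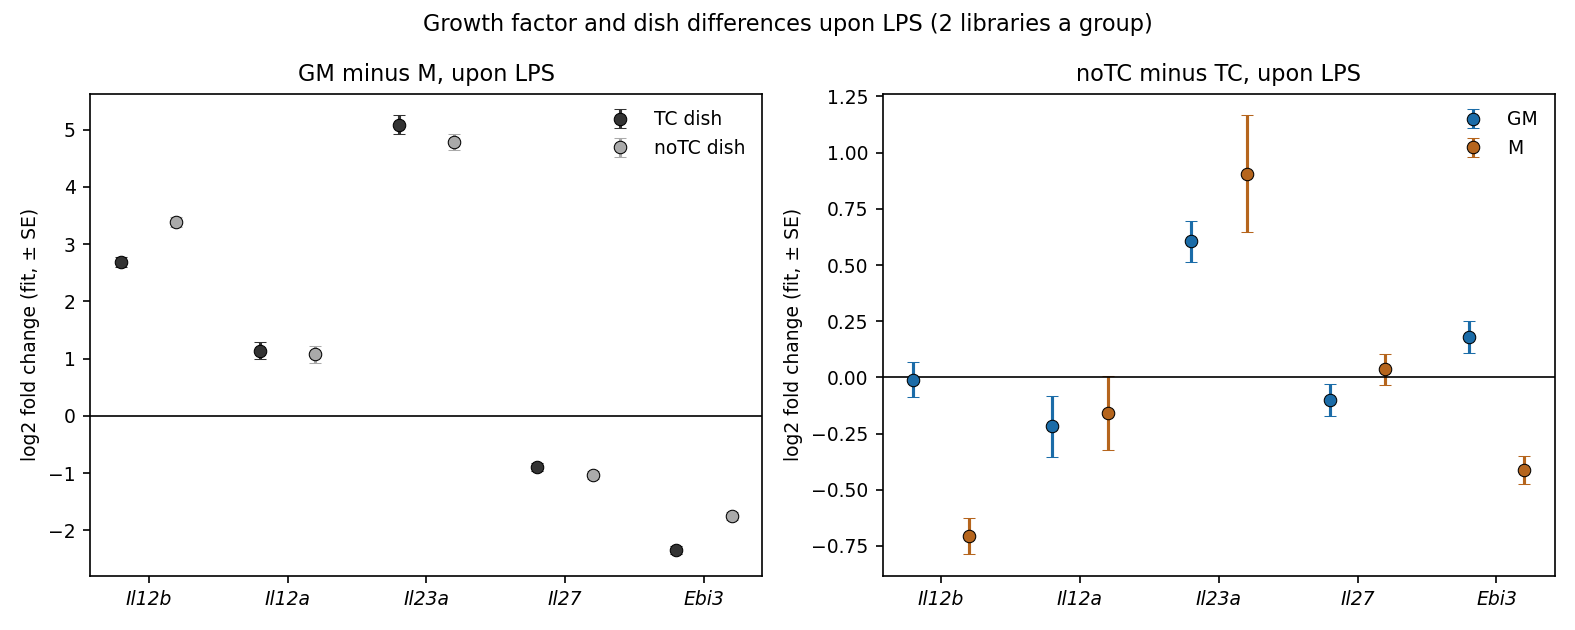
Fitted log2 fold changes with their SE upon LPS, for GM minus M on TC and noTC dishes (left) and for noTC minus TC in GM and M cells (right), 2 libraries a group. The growth factor differences are above 0 for Il12b, Il12a and Il23a and below 0 for Il27 and Ebi3 on both dishes, and the dish differences are largest for Il23a in both cells and for Il12b in M cells.

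At steady state the libraries from noTC dishes held more Il12b and Il27 counts than those from TC dishes, at levels below 1% of those in the other libraries. Whether these counts came from the cells on the dishes or were carried over from other libraries was not tested. In GM cells 2 of 5 members were called, beside 7.54% of all tested genes. Il12b had 3 and 4 counts on TC and 166 and 215 counts on noTC dishes, a ratio of 47.1 (interval 22.6 to 118, adjusted p = 1.6e-09). Il27 had 9 and 8 counts against 28 and 32, a log2 fold change of 1.60 ± 0.39 (adjusted p = 0.012). In M cells 3 members were called, beside 27.2%. Il12b had 0 counts in both M-TC libraries and 166 and 189 in M-noTC, at least 43.0-fold higher (adjusted p = 5.3e-10). Il27 had 4 and 18 counts against 30 and 51, a log2 fold change of 1.38 ± 0.34 (adjusted p = 0.0044). Ebi3 was lower on noTC dishes by a small step, -0.22 ± 0.074 (adjusted p = 0.033), and was not called when M-TC replicate 2, M-noTC replicate 1 or M-noTC replicate 2 was left out (adjusted p = 0.36, 0.19 and 0.069, and between 0.0074 and 0.36 over all alternatives).

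The steady state rise was then set against the mean of the other 10 libraries, which are the 8 LPS libraries and both vehicle-treated noTC libraries of the other growth factor. In CPM scaled by library size, the excess of Il12b on noTC over TC dishes was 0.675% of that mean in GM and 0.573% in M. For Il23a it was 0.648% and 0.554%, and for Il27 0.390% and 0.416%. For Il12a it was 2.14% in GM, from 8 against 1 counts, and 0.330% in M, from 1 against 0 counts. Genes under 1 CPM in both TC libraries and at 100 CPM or more in the mean of the others numbered 15 in GM and 19 in M, Il12b and Il27 among them, and their median was 0.675% in GM (range 0.390% to 0.907%) and 0.600% in M (range 0.00840%, Rbp4, to 0.845%). Without the members the medians were 0.684% over 13 genes and 0.615% over 17. Il6, Cxcl1, Cxcl9, Nos2 and Edn1 were among these other genes in both cells. In GM the median with the members is the value of Il12b itself, so a subtraction of it takes off the excess of Il12b by construction. The share set by the other 13 and 17 genes was therefore also taken off the noTC steady state counts, an alternative chosen after the data had been seen. Il12b was then left with 0 and 17 counts in GM-noTC (log2 1.06, adjusted p = 0.65) and 8 and 0 in M-noTC (adjusted p = 0.25), and was not called. This share, 0.684% in GM and 0.615% in M, was also above the excess of Il12b itself. The loss of the Il12b call thus follows by construction and is not a result. Over all alternatives the adjusted p of Il12b lay between 3.9e-89 and 0.65 in GM and between 2.8e-82 and 0.25 in M, and only the subtractions lost the call. Il27 was left with 0 counts in both GM-noTC libraries and 1 and 8 in M-noTC. It was then called lower on noTC dishes in both (adjusted p = 0.0097 and 0.043). The share taken off was above the excess of Il27 itself, so this lower level follows by construction and is not a result. Over all alternatives the adjusted p of Il27 lay between 0.00035 and 0.15 in GM and between 0.00015 and 0.16 in M, and it was not called without GM-TC replicate 2, GM-noTC replicate 1 or GM-noTC replicate 2 in GM, nor without M-TC replicate 1 or M-noTC replicate 2 in M. The TC libraries of these comparisons also held the cardiac muscle counts, and the part of either in the dish difference was not tested.

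**Figure D4:**
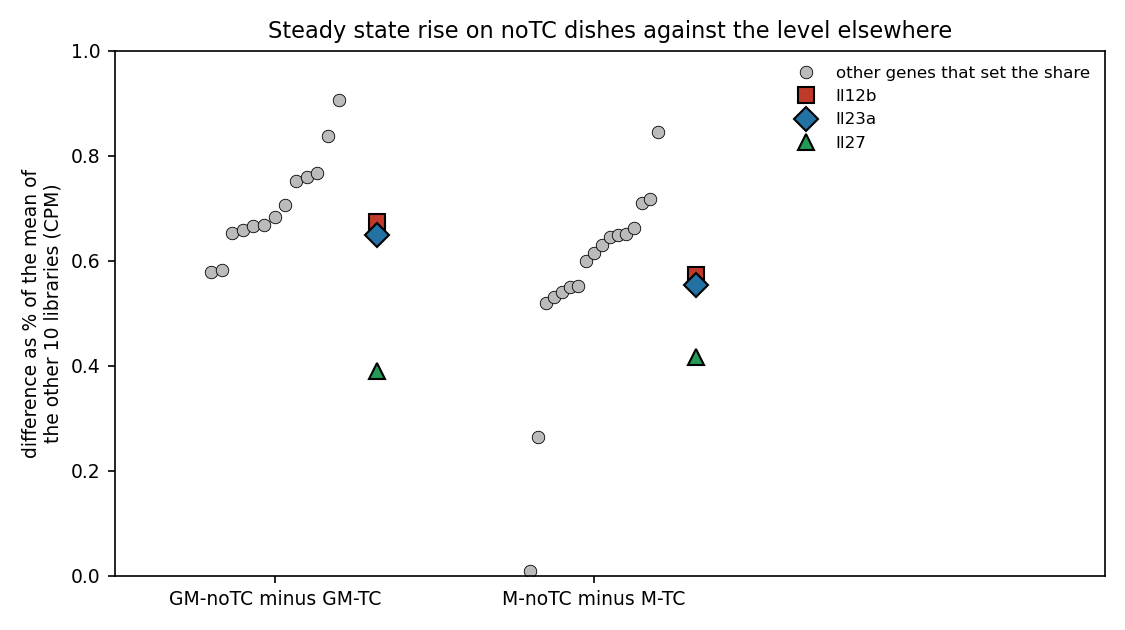
Difference between noTC and TC libraries at steady state, as a percent of the mean CPM of the other 10 libraries, for Il12b, Il23a and Il27 (coloured) and for the other genes under 1 CPM on TC dishes and at 100 CPM or more elsewhere (grey, 13 in GM and 17 in M). Il12a, which rests on at most 8 counts a group, is not drawn. Il12b and Il23a lie among the grey points, Il27 lies at 0.390% and 0.416%, and in M 2 grey genes, Rbp4 at 0.00840% and Cd38 at 0.265%, lie below Il27.

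The LPS response itself was also compared between cultures. In GM the response was smaller on noTC than on TC dishes for 2 members, beside 0.783% of tested genes, and in M for 2 members, beside 10.6%. They were Il12b and Il27 in both, the members that were called higher on noTC dishes at steady state. Il12b in M has a call but no value, since M-TC had 0 counts. Upon LPS itself, Il12b in GM differed by -0.01 between dishes (adjusted p = 0.98 in edgeR). The Il27 call in GM was kept in 8 of 17 alternatives. With the share set by genes other than the members subtracted at steady state, 0 members were called smaller on noTC dishes in GM or in M. That share was above the steady state excess of Il12b and of Il27, so this follows by construction. Ebi3 rose less in GM than in M cells, with a difference of -1.301 ± 0.11 (log2) on TC dishes (adjusted p = 2e-09), where it was the only member called beside 41.1% of tested genes. On noTC dishes the same interaction was -0.83 ± 0.11 for Ebi3 (adjusted p = 1.4e-06), -1.10 ± 0.28 for Il27 (0.0039), 2.80 ± 0.18 for Il12b (5.8e-11) and 4.32 ± 1.02 for Il23a (0.0022), 4 of 5 members beside 36.2%. With the share set by other genes subtracted, Ebi3 alone of these 4 was still called. The steady state excess of Il12b, Il23a and Il27 was below that share. On TC dishes the interaction of Il27 was -0.75 ± 0.51 (adjusted p = 0.27), and those of Il12b, Il12a and Il23a have no value, since a group had at most 1 count.

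Genes of the receptors, signal carriers and regulators around the family were called both with LPS and between growth factors. The 6 kinases and STATs that carry IL-12, IL-23 and IL-27 signals were all called higher in all 4 cultures. Of all tested genes, 32.8% to 37.6% were called higher upon LPS, and that share stands beside each count of rises here with TMM scaling. Scaled by library size alone, 5 of the 6 were called higher, with 1 lower in both M cultures. In the order GM-TC, GM-noTC, M-TC, M-noTC, which holds for each run of 4 values here, Jak2 rose by 3.06, 2.78, 4.48 and 4.29 on the log2 scale. Stat3 rose by 0.86, 0.87, 1.87 and 1.81. Of 14 transcription factors that are known to act on these genes, 12 were called higher and 1 lower in each culture. They are Batf3 and factors of the NF-kappaB, IRF, C/EBP and PU.1 kind. Their medians were 2.26, 2.32, 2.04 and 1.99, beside medians between -0.05 and -0.01 over all genes. Scaled by library size alone, 9, 9, 12 and 11 were higher and 3, 4, 1 and 1 lower. Nfkbiz, an inducible NF-kappaB cofactor, rose by 6.89, 6.21, 4.89 and 5.15, Irf7 by 5.93, 5.22, 3.58 and 2.98, and Irf1 by 4.52, 4.40, 3.93 and 4.18. Of 6 receptors that trigger or prime the response, 3, 4, 4 and 4 were called higher and 2, 1, 1 and 1 lower. Cd40 rose by 8.40, 6.79, 6.76 and 6.66, the interferon receptor chains Ifnar2 by 1.22, 1.21, 0.68 and 0.60 and Ifnar1 by 1.05, 0.99, 0.66 and 0.45, and Tlr4, the LPS receptor, was lower in all 4, at -1.09, -1.04, -0.20 and -0.15. Scaled by library size alone, 1 of these 6 was called higher in each M culture and 5 (M-TC) or 4 (M-noTC) lower. Of the 5 receptor chains of the family, Il6st, the gp130 chain of the IL-27 receptor, was lower in all 4 cultures at -0.29, -0.47, -0.78 and -1.004, and Il12rb2, the signalling chain of the IL-12 receptor, rose in GM cells by 3.76 on TC and 3.36 on noTC dishes. In M cells Il12rb2 had log2 changes of 0.25 and 0.30, which did not pass (adjusted p = 0.14 and 0.056). Il23r was called higher in all 4, from at most 5 counts a group. Scaled by library size alone, the mean level of Il12rb2 was lower upon LPS in both M cultures, so its direction in M cells depends on the scaling. With that scaling 2, 2, 2 and 1 of the 5 receptor chains were called higher and 2, 2, 2 and 3 lower. With TMM scaling 1 was called lower in each culture.

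The 5 negative regulators on the list differed between growth factors upon LPS, where all 5 were lower in GM cells on both dishes. Since 66.8% of all tested genes on TC and 66.1% on noTC dishes were called in that comparison, the counts of calls in this and the other lists say little, and the sizes are given. Il10, the cytokine that holds back IL-12 and IL-23, had 5 counts in each GM-noTC-LPS library and 9 and 11 in GM-TC-LPS, against 44.1 and 53.7 CPM in M-TC-LPS and 23.5 and 28.6 CPM in M-noTC-LPS. The GM minus M log2 fold change of Il10 was -6.63 ± 0.22 on TC and -6.78 ± 0.27 on noTC dishes (adjusted p = 2.3e-16 and 3.3e-15). Maf, a factor known to raise Il10, was lower by -3.75 and -3.10, and Bcl6 by -2.79 and -1.70. The median over the 5 was -2.79 on TC and -1.70 on noTC dishes, beside medians of 0.03 and 0.02 over all genes, and all 5 were also called with scaling by library size alone. The activators went the same way in most cases, with 3 higher and 11 lower in GM cells on either dish. Irf7 was lower by -1.81 and -1.72 and Irf8 by -1.29 and -1.35, while Batf3 was higher by 1.32 and 1.98 and Cebpb by 0.91 and 1.84. The Batf3 values rest on 15 counts in M-TC-LPS and 15 in M-noTC-LPS. Of the 6 kinases and STATs, all 6 were lower in GM on TC dishes, and 5 were lower and 1 higher on noTC dishes (5 lower and 0 higher when scaled by library size alone). Stat4 was lower by -1.96 and -1.92, Stat3 by -1.04 and -0.83 and Tyk2 by -0.70 and -0.61. Il12rb2 was higher in GM cells by 3.23 on TC and 2.70 on noTC dishes, with 105 ± 4.56 CPM in GM-TC-LPS against 11.2 ± 0.334 CPM in M-TC-LPS (mean ± SD, n = 2). Il27ra, the specific chain of the IL-27 receptor, was higher by 2.66 and 1.28, and Il12rb1, the chain shared by the IL-12 and IL-23 receptors, was lower by -1.76 on TC dishes and had -0.74 on noTC dishes (adjusted p = 0.37). Of the priming receptors, Cd40 was lower in GM cells by -1.42 and -1.22, Tlr4 by -0.87 and -0.67 and Ifngr1 by -0.72 and -0.40. In the LPS response, 5, 4, 5 and 4 of these negative regulators were called higher, beside 32.8% to 37.6% of all tested genes. Scaling by library size alone left 1, 1, 3 and 3 called higher, and moved the median of all genes to between -0.83 and -0.53. Il10 rose by 4.203 in M-TC and 4.999 in M-noTC, Nfil3 by 0.65, 0.66, 2.57 and 2.38 and Atf3 by 0.58, 0.68, 2.54 and 1.86, all with TMM scaling.

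The genes with the most similar profiles over the 8 groups differed by member, and the likeness was measured as the root mean square distance of centred log2(CPM + 0.5) group means. For Il12b they were Il1b (distance 0.80), Il6 (0.97) and Tnfsf15 (1.01), all cytokine genes. For Il12a they were Tpbg (0.22), Schip1 (0.25) and Rab11fip1 (0.29). Schip1 is the neighbour of Il12a on chromosome 3, 64.2 kb away with 0 protein-coding genes between. For Il23a they were Ereg, an EGF family ligand (0.67), Apol7c (0.72) and Adm (0.74). For Il27 they were Edn1, which encodes endothelin (0.26), the chemokine gene Ccl5 (0.32) and Gbp5 (0.37). For Ebi3 they were the cytokine gene Il18 (0.20), Fchsd2 (0.21) and Cdyl2 (0.21). No member was among the 3 nearest genes of another. Among the 12514 tested genes, the nearest member was rank 11 for Il12b (Il27), 31 for Il23a (Il12a) and 67 for Il27 (Il12b), all near the front. It was rank 463 for Il12a (Il23a) and 5896 for Ebi3 (Il12a). With 2 added in place of 0.5, Schip1, Il1b, Tnfsf15, Ereg, Apol7c, Edn1, Ccl5, Il18 and Fchsd2 were again among the 3 nearest of their member, and the first place changed for each of the 5 members. The distances are over 8 group means of the same libraries and carry no test.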

How the data were processed

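RNA-seq of 16 libraries was analysed from one gene table. The authors deposited expected counts, without normalization, for 22287 genes. The submitters' processing notes name fastp 0.18.0, Bowtie2 2.2.8, HISAT2, StringTie 1.3.1 and RSEM among their tools. The genome build and the use of strand are not given in the sources used here. Groups were taken from the sample labels. All libraries were used. Expected counts were rounded to whole counts. Total counts lay between 17527802 and 31458363, and intervals and floors cover counting error only.

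Of 16756 genes with any count, 12514 passed filterByExpr of edgeR, run on the groups. Libraries were then scaled by TMM. The quasi-likelihood model covered all 8 groups together (edgeR 4.0.16, R 4.3.3) and had no replicate block, and p-values were Benjamini-Hochberg adjusted over all tested genes, with calls under 0.05. Its biological coefficient of variation was 4.75%. Interactions were contrasts of the same fit. A fold against a group with 0 counts was set against 3 counts a library and given as a lower bound. With few counts, the ratio of summed counts was given with an exact 95% interval. The scripts were tested on simulated data.

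Named in the text are the 5 members, from each pathway list up to 3 genes with the largest changes among those called, list genes under the filter, and the 3 genes nearest to each member by profile. Tlr4 in the LPS response, Batf3, Il12rb1 on noTC dishes and the genes named beside the share of other libraries were chosen after their values were seen. One gene that this rule names is not reported here. The members and lists were chosen with earlier results of these data known. Gene models are from GENCODE M21 (GRCm38) and promoter windows from RefSeq (GRCm38.p6), with windows for 3 of 5 members. Alternatives were DESeq2 1.42.0, DESeq2's size factors or library size alone in edgeR, no expression filter, only the libraries compared, a replicate block, fold above 2 with unadjusted p under 0.05 (the study's thresholds), taking the share described in the text off the vehicle-treated noTC libraries (also with that share set without the members, added after the data were seen), another pseudocount, and leaving out each library.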

Additional observations from a re-analysis of the deposited data

Results flagged for a closer look

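Several responses differed between cultures by an interaction term of the edgeR fit (log2 scale, adjusted p over all tested genes). The LPS response of Il12b was smaller on noTC than on TC dishes by -5.52 ± 0.37 (SE) in GM (adjusted p = 7.1e-09) and by a fitted -10.58 in M (adjusted p = 6.3e-10), where the value depends on the prior count because M-TC had 0 counts. The LPS response of Il27 was smaller on noTC dishes by -1.70 ± 0.39 in GM (adjusted p = 0.043) and by -1.34 ± 0.35 in M (adjusted p = 0.016). The Il27 call in GM was kept in 8 of 17 alternatives and, of the 8 single libraries left out, only without GM-TC replicate 1 (adjusted p between 0.00054 and 0.25). In M it was kept in 13 of 17, and was lost without M-TC replicate 1, where the term was -0.67, and without M-noTC replicate 2 (adjusted p between 0.00086 and 0.29). With the share of other libraries subtracted from the noTC steady state counts, as set by genes other than the members, the Il12b term in GM was -1.06 (adjusted p = 0.85). That Il12b term was past the threshold in 15 of 17 alternatives, with p between 4.3e-89 and 0.85. The Il27 terms turned to 6.10 in GM and 1.77 in M, neither called, but that share is above the steady state excess of Il27 and of Il12b.

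The LPS response of Ebi3 was smaller in GM than in M on TC dishes by -1.30 ± 0.11 (adjusted p = 2e-09) and on noTC dishes by -0.83 ± 0.11 (adjusted p = 1.4e-06). On noTC dishes the LPS response was larger in GM by 2.80 ± 0.18 for Il12b (adjusted p = 5.8e-11) and by 4.32 ± 1.02 for Il23a (adjusted p = 0.0022, from 5 counts in each steady state group), and smaller by -1.10 ± 0.28 for Il27 (adjusted p = 0.0039). Upon LPS the noTC minus TC difference was -0.01 in GM and -0.70 in M for Il12b, an interaction of 0.69 ± 0.11 (adjusted p = 0.00026). For Ebi3 it was 0.18 in GM and -0.41 in M, an interaction of 0.59 ± 0.095 (adjusted p = 2e-04). The causes were not tested.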

How the results depend on the processing

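The alternatives gave 1394 values and counts. Of the 924 member values, 843 kept their direction and their side of the threshold. Of the 470 counts of calls, 412 were equal or close to those of the main fit. Scaled by library size alone, 1 member in place of 2 was called higher in GM on noTC dishes at steady state, and Il27 there was -0.22. DESeq2 called 1 member higher, in place of 0, in the interaction of growth factor and LPS on TC dishes. With the fold and unadjusted p of the study, 4 members were called higher on noTC dishes in GM at steady state and 0 upon LPS; in M, 0 were lower at steady state and 0 higher and 0 lower upon LPS. The same thresholds called 1 lower in GM than M on TC dishes upon LPS, and 1 higher and 0 lower on noTC dishes at steady state. For the interactions they called 4 lower (dish and LPS in GM), 1 lower (growth factor and LPS on noTC dishes), 1 lower (dish and growth factor at steady state) and 0 higher (the same upon LPS). Both sets of 4 in GM include Il12a (8 against 1 counts at steady state) and Il23a (5 against 0 counts), which have no value in that interaction. The 1 lower for dish and growth factor at steady state is Il12b, which has no value there.

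The subtraction from the noTC steady state counts left 0 members higher and 1 lower in GM, and 0 higher in M, for noTC against TC dishes; Il27 was then -6.20 in GM and -1.59 in M. On noTC dishes GM minus M had 1 higher and 2 lower, with Il27 at -4.77. The interaction of dish and LPS had 0 lower in GM and in M, with Il27 at 6.10 and 1.62, that of growth factor and LPS on noTC dishes 0 higher, with Il27 at 3.73, and that of dish and growth factor at steady state had Il27 at -4.61. By construction it lowers noTC steady state counts, to 0 for Il27 in GM. With the share set without the members, an alternative chosen after the data had been seen, noTC against TC had 0 higher and 1 lower in GM (Il27 -6.20) and 0 higher and 2 lower in M (Il27 -1.73). That share was above the steady state excess of Il12b and of Il27 in both cells. GM minus M on noTC dishes had 1 higher and 2 lower (Il27 -4.62), the interaction of dish and LPS 0 lower in GM and in M (Il27 6.10 and 1.77), that of growth factor and LPS on noTC dishes 0 higher (Il27 3.58), and Il27 was -4.47 in that of dish and growth factor at steady state.

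Leaving out 1 library gave 1 to 2 members higher for noTC against TC at steady state in GM, 1 to 2 higher and 0 to 1 lower in M, and 0 to 1 higher in M upon LPS. GM minus M at steady state had 0 higher on TC and 0 to 2 higher on noTC dishes. The interaction of dish and LPS had 1 to 2 lower in GM and in M, and that of growth factor and LPS on TC dishes 1 to 2 lower. Il27, where not called, changed sign in GM minus M on TC dishes at steady state, where it lay between -0.83 and 1.22. Il27 in GM minus M on noTC dishes at steady state lay between -0.038 and 0.19, Il27 in noTC minus TC in M upon LPS between -0.041 and 0.11, and Il27 in the interaction of dish and growth factor at steady state between -1.16 and 0.88. Il12b in noTC minus TC in GM upon LPS lay between -0.084 and 0.071, and Il12a in the interaction of dish and growth factor upon LPS between -0.21 and 0.10. Where a group kept 1 library, it is assumed to vary like the others.

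A fit with the replicate block changed no call (Il23a on noTC against TC dishes in GM upon LPS was 0.61 with it). Same-numbered libraries deviated together with correlations of -0.064 to 0.036 over 12 comparisons, so the numbers were not taken as pairs. Depth limits Il12a and Il23a at steady state, where each group had 0 to 8 counts.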
